A study of Mus musculus with 4 samples.

Results

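Glycolysis and the response to low oxygen were examined through 34 genes in DPPIV- and DPPIV+ fibro-adipogenic progenitors (FAPs), the mesenchymal progenitor cells of muscle interstitium. The 34 genes were taken by symbol from the table of read counts, which lists 24421 symbols, and the list was drawn up with earlier results of these data known. The list holds 3 transporters of glucose and lactate, 17 glycolytic enzymes, 2 enzymes that set fructose-2,6-bisphosphate, 4 pyruvate dehydrogenase kinases, 4 genes of the hypoxia-inducible factor (HIF) switch and 4 hypoxia or stress response genes. FAPs negative for CD31 and CD45 and positive for Sca1 were sorted by surface DPPIV, a peptidase encoded by Dpp4, from skeletal muscle of 2 wild-type mice, which gave 1 DPPIV- and 1 DPPIV+ library per animal and 4 libraries in all. Both animals had been given a CSF1R inhibitor, which depletes macrophages, for 3 weeks and then a regular diet for 3 days, so both groups carry the same treatment, and untreated animals were not analysed here. The study used adult animals of both sexes; the labels name the tibialis anterior as source, whereas the extraction protocol describes muscle of both hindlimbs. The comparison asks how the FAP populations of 1 animal differ, and each sorted population was a mixture of cells lysed in bulk.

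Library totals ranged from 18240110 to 20879405 counts, and 3 counts corresponded to 0.144 to 0.164 CPM, the count of a gene relative to its scaled library total. Dpp4 stood at 89.8 and 39.7 CPM in the DPPIV- libraries (mouse 1, then mouse 2, as in every pair of values) and at 728 and 575 CPM in DPPIV+ FAPs, which is the order of the labels. The FAP marker Pdgfra, the receptor that defines these cells, was abundant on both sides. Its level was 1567 ± 128 CPM in DPPIV- and 1200 ± 57.7 CPM in DPPIV+ libraries (mean ± SD, n = 2 mice). Pdgfra was lower in DPPIV+ FAPs (log2 fold change -0.38) by edgeR and DESeq2, the tests described below. Of 8 FAP markers, both tests called 2 higher (Ly6a at 0.58 and Cd34 at 0.52) and 5 lower, among them Pdgfrl (-1.92) and Lum (-0.85). Over all genes tested, edgeR called 15.9% higher and 17.2% lower, and DESeq2 7.97% and 8.59%.

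Glycolysis splits glucose into pyruvate, which is either reduced to lactate and exported or passed into mitochondria through the pyruvate dehydrogenase complex. Several steps have alternative isoforms encoded by separate genes, which differ in regulation and in tissue distribution. When oxygen is low, prolyl hydroxylases no longer mark HIF alpha subunits for degradation, and the stabilised factor binds a short core sequence in the control regions of many glycolytic genes. Because this switch acts mainly on protein, mRNA levels of Hif1a and Epas1 do not measure HIF activity.

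ACGTG, a form of the core that HIF binds and called the core below, was searched on both strands in RefSeq promoter windows. The windows (GRCm38.p6) ran from 250 bases before to 50 bases after the transcription start. At least 1 window was found for 32 of the 34 genes, and 22 of these 32 genes (68.8%) held the core in a window. The list was chosen for glycolysis and hypoxia response, where HIF is known to bind, so a high share was likely in advance. Per window, 25 of 46 (54.3%) held the core, against 19.6% of all windows and 25.3% of those of genes tested for expression. Among all 27025 genes with a window, 21.8% held it, and among those also tested for expression here, 29.5% did. Another form, GCGTG, was found in 21 of the 32 genes (65.6%), against 35.2% of all genes and 57.0% of those tested. The median GC content of the windows was 62.8% for the 34 genes, 52.7% for all promoters and 61.0% for the promoters of tested genes. The core occurred in 2 of 5 genes higher in DPPIV+ FAPs, in 5 of 9 lower genes, in 12 of 14 genes tested and not called and in 3 of 4 genes not tested for expression; these counts were not compared with a test. The E-box CACGTG, which contains the core on both strands and is also bound by other factors, was found in 7 of the 32 genes (21.9%), against 8.09% of all genes and 11.7% of those tested. The sequences below are stretches around the core, before the RefSeq start of the window and outside every annotated exon, from a pair of lactate transporters that differed in opposite directions, the main lactate dehydrogenase and a stress-induced inhibitor. Capitals mark the core on either strand; overlapping matches merge into the E-box. They lie at chr3:104638439-104638494 on the plus strand for Slc16a1, chr11:120949015-120949052 on the plus strand for Slc16a3, chr7:46845634-46845799 on the plus strand for Ldha and chr10:59951928-59951982 on the minus strand for Ddit4, and each is written 5′ to 3′ along the gene. The stretches of Slc16a3 and Ldha also lie in an intron of 1 annotated transcript of their gene that starts farther upstream. Such matches are letters in a window, and binding was not measured.
Slc16a1: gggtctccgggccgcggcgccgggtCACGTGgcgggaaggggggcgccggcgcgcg
Slc16a3: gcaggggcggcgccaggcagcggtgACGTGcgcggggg
Ldha: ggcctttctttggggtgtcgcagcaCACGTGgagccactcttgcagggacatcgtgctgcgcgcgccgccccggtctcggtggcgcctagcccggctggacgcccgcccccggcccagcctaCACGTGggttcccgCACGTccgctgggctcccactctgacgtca
Ddit4: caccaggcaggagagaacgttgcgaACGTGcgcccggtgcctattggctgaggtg

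The genes did not move as a block between the cell types. In DPPIV+ FAPs, 6 were higher (Slc16a1, Hk2, Pfkp, Pfkfb4, Pdk4 and Ndrg1) and 10 were lower (Slc16a3, Pfkl, Tpi1, Eno2, Pkm, Ldha, Ldhb, Pdk3, Epas1 and Ddit4), while 14 of the 30 genes tested did not pass the threshold. The test was edgeR's quasi-likelihood F test with mouse and cell type in the model, over the 11588 genes that reached 2 CPM in 2 or more libraries, at an adjusted p of 0.05. The 6 higher genes are 20.0% of the 30 tested, where 15.9% of all genes tested were higher, and the 10 lower genes are 33.3%, where 17.2% of all genes were lower. These shares are descriptions and were not tested against each other. All 16 genes differed in the same direction in both mice, which calling them on these same mice made likely. Of the 30 genes tested, 8 had opposite directions in the 2 mice. Among the 16 called genes, 3 (Slc16a3, Eno2 and Ldhb) differed more than 2-fold. These 3 lie at chr11:120948480-120960868 on the plus strand (Slc16a3) and at chr6:124760053-124769673 and chr6:142490249-142507957 on the minus strand (Eno2 and Ldhb), and all 34 genes are annotated as protein-coding (GENCODE M21, GRCm38). With DESeq2's Wald test, 4 genes were higher and 7 lower, against 7.97% and 8.59% of all genes, and Hk2, Pdk4, Tpi1, Pkm and Pdk3 were the 5 no longer past the threshold. In bulk libraries, fewer cells of a type and less RNA per cell cannot be told apart.

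**Figure D1:**
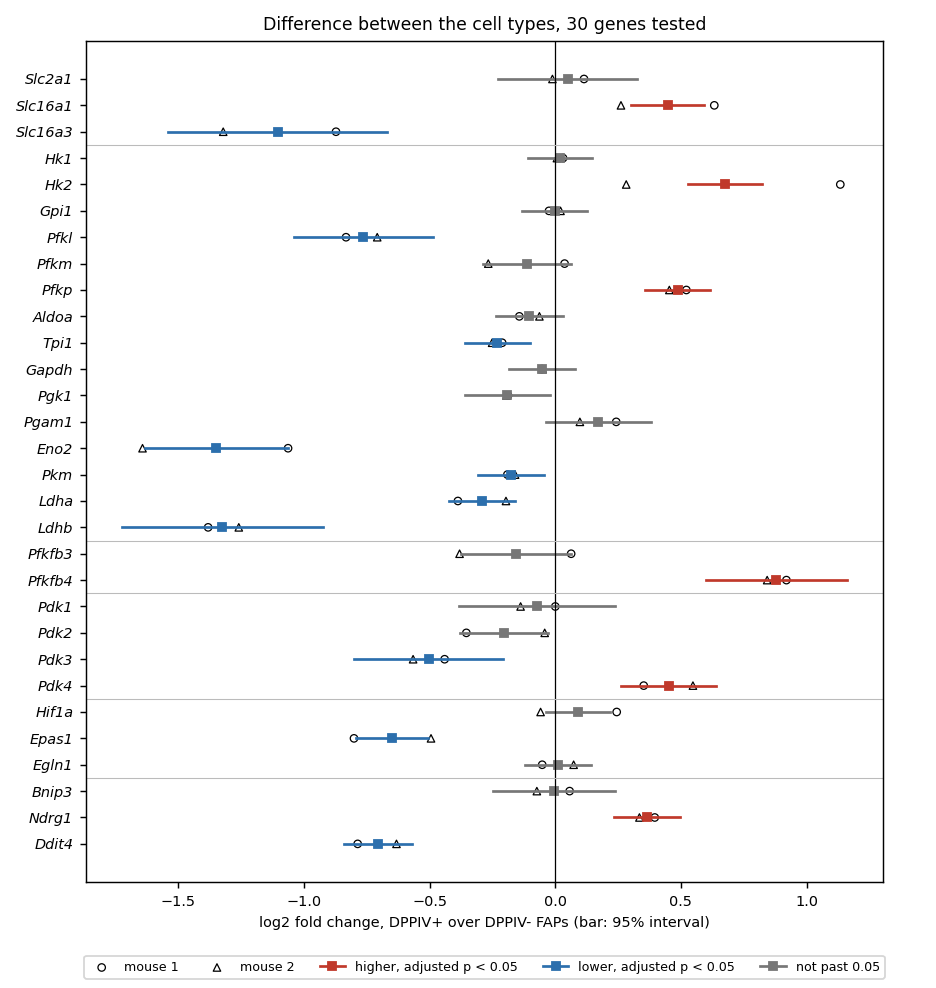
Log2 fold change of DPPIV+ over DPPIV- FAPs for the 30 genes tested, ordered by role with thin lines between roles; squares are the fitted values, bars their 95% intervals, circles and triangles the ratios within mouse 1 and mouse 2. Eno2, Ldhb and Slc16a3 lie farthest to the left at -1.35, -1.32 and -1.10, Pfkfb4 and Hk2 farthest to the right at 0.88 and 0.68, and the circle and triangle of Hk2 are farther apart (1.13 and 0.28) than its interval is wide.

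Regardless of the test, both DPPIV+ libraries lay above both DPPIV- libraries for 8 of the 30 genes, against 27.8% of all genes tested, and below them for 13 genes, against 28.6%. The median log2 fold change of the 30 genes was -0.088, with -0.038 in mouse 1 and -0.068 in mouse 2, and that of all genes tested was -0.0020. The median absolute log2 fold change was 0.22 for the 30 genes and 0.16 for all genes.

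The transporters differed in opposite directions. Slc16a1 encodes MCT1, a monocarboxylate transporter that carries lactate in either direction, and Slc16a3 encodes MCT4, which is adapted to lactate export. Slc16a1 was at 37.5 and 44.1 CPM in DPPIV- FAPs and at 58.1 and 52.9 CPM in DPPIV+ FAPs. Both DPPIV+ libraries were the higher ones, 1.36-fold (log2 fold change 0.45 ± 0.07 SE, adjusted p = 1.57e-08). The ratios of mouse 1 (0.63) and mouse 2 (0.26) both lay outside its 95% interval of 0.30 to 0.59. Slc16a3 was at 5.50 and 7.41 CPM in DPPIV- FAPs and at 3.00 and 2.96 CPM in DPPIV+ FAPs. The DPPIV+ libraries were nearly level and 2.15-fold below the others (log2 fold change -1.10 ± 0.22, adjusted p = 4.47e-06). Per kilobase of principal transcript, Slc16a1 made up 87.0% and 85.4% of the summed level of this pair in DPPIV- FAPs and 94.99% and 94.59% in DPPIV+ FAPs. Slc2a1, which encodes the glucose transporter GLUT1, was at 10.47 to 12.88 CPM in all 4 libraries, and the groups overlapped (log2 fold change 0.05, interval -0.23 to 0.33).

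**Figure D2:**
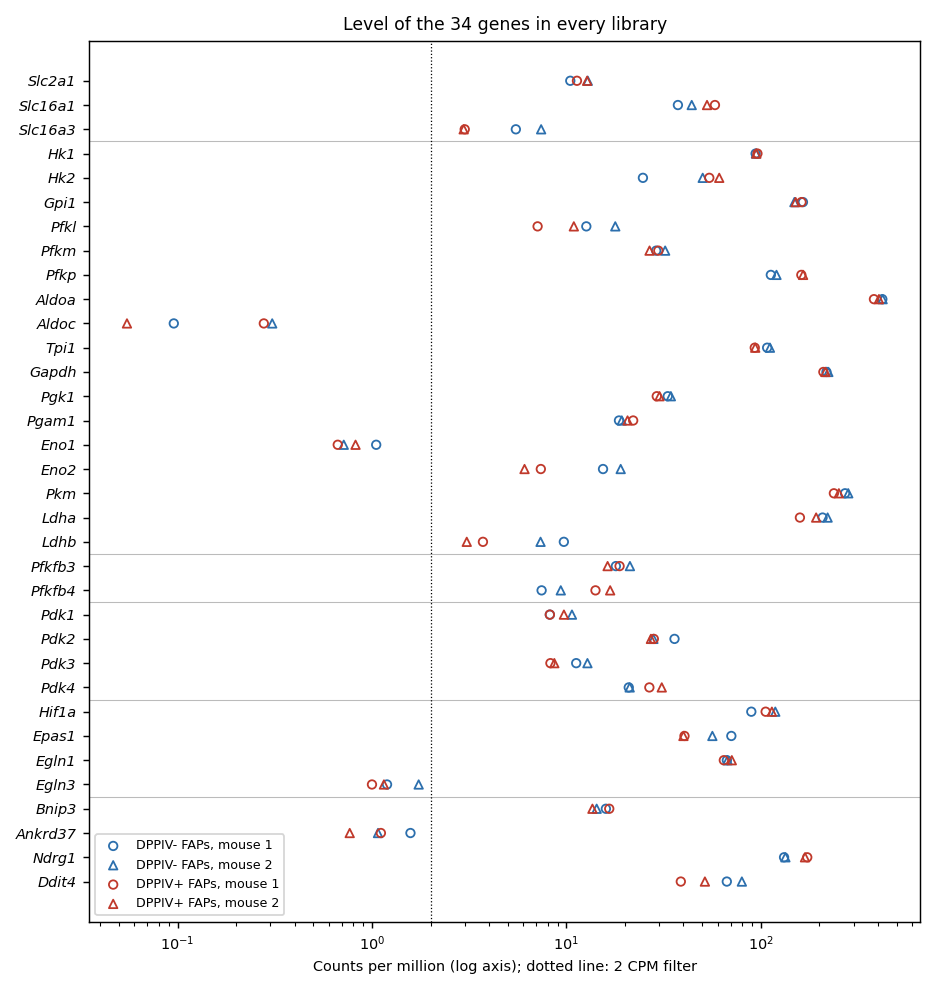
Level of each of the 34 genes in every library, in CPM on a log axis; blue symbols are DPPIV- FAPs, red symbols DPPIV+ FAPs, circles mouse 1 and triangles mouse 2, and the dotted line is the filter of 2 CPM. Aldoa, at 382 to 423 CPM, lies farthest to the right, and Aldoc, Eno1, Egln3 and Ankrd37 lie left of the line in every library.

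Hexokinases trap glucose in the cell as glucose-6-phosphate. Hk1, the broadly expressed isoform, was at 94.0 to 96.1 CPM in all libraries, with a log2 fold change of 0.02 and an interval of -0.11 to 0.15. Hk2, the inducible isoform, was at 24.8 and 50.3 CPM in DPPIV- FAPs and at 54.3 and 61.1 CPM in DPPIV+ FAPs. The DPPIV- library of mouse 1 was far below the other 3, and the DPPIV- library of mouse 2 was close to the DPPIV+ values. The fitted difference was 1.60-fold (log2 fold change 0.68 ± 0.08, adjusted p = 5.83e-18), made of 1.13 in mouse 1 and 0.28 in mouse 2. With DESeq2 the adjusted p was 0.343, within a range of 3.74e-18 to 0.435 over 17 alternatives, of which 10 kept the call. The share of Hk2 per kilobase among these hexokinases was 15.5% and 27.1% in DPPIV- FAPs and 28.3% and 31.0% in DPPIV+ FAPs.

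Phosphofructokinase commits sugar phosphate to glycolysis, and its 3 genes followed 3 courses. Pfkp, the platelet-type isoform and the most abundant of them, was at 112.6 and 120.4 CPM in DPPIV- FAPs and at 162 and 165 CPM in DPPIV+ FAPs. That was 1.40-fold higher (log2 fold change 0.49 ± 0.07, adjusted p = 1.94e-12), with 0.52 in mouse 1 and 0.45 in mouse 2. Pfkl, the liver-type isoform, was at 12.7 and 17.8 CPM in DPPIV- FAPs and at 7.11 and 10.9 CPM in DPPIV+ FAPs. It was 1.70-fold lower (log2 fold change -0.76 ± 0.14, adjusted p = 4.81e-07), with -0.83 in mouse 1 and -0.71 in mouse 2. The lower DPPIV- library, of mouse 1, and the higher DPPIV+ library, of mouse 2, were close. Pfkm, the muscle-type isoform, was at 26.8 to 32.2 CPM, overlapped between the groups and was not called (log2 fold change -0.11, interval -0.29 to 0.06). As shares per kilobase, Pfkp made up 66.9% and 64.5% in DPPIV- FAPs and 76.1% and 76.5% in DPPIV+ FAPs, and Pfkl 8.36% and 10.6% against 3.72% and 5.63%. On the opposite strand, 748 bases of the exons of Pfkp overlap Pitrm1, which had 1091 to 1223 reads; whether strand was used in counting is not given in the sources used here.

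The enzymes of the middle of the pathway differed little. Aldoa, the aldolase of most tissues, had 422 ± 1.12 CPM in DPPIV- and 394 ± 16.4 CPM in DPPIV+ libraries (n = 2 mice), and it was not called (log2 fold change -0.10, adjusted p = 0.269). Gapdh, which carries out the oxidative step and is often used as a reference gene, was at 210 to 222 CPM, with a log2 fold change of -0.05 and an interval of -0.18 to 0.08. Gpi1, the isomerase of hexose phosphates, had a log2 fold change of -0.0022 (interval -0.13 to 0.13). Pgam1, a mutase, was at 0.17 (interval -0.04 to 0.38), and Pgk1, the first ATP-forming kinase, at -0.19 (adjusted p = 0.0773). Tpi1, which interconverts the triose phosphates, was the only enzyme among these 6 past the threshold. It was at 107.8 and 111.4 CPM in DPPIV- FAPs and at 93.1 and 93.6 CPM in DPPIV+ FAPs, 1.17-fold lower (log2 fold change -0.23 ± 0.07, adjusted p = 0.00194). The call was kept in 10 of 17 alternatives and lost with DESeq2 (adjusted p = 0.196; range 0.000206 to 1.0 over the alternatives).

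Eno2 showed the largest log2 fold change of the 30 genes. It encodes gamma enolase, known as the neuronal isoform. Eno2 was at 15.4 and 19.0 CPM in DPPIV- FAPs and at 7.39 and 6.09 CPM in DPPIV+ FAPs. The groups stood well apart, 2.55-fold (log2 fold change -1.35 ± 0.15, adjusted p = 3.87e-19), with -1.06 in mouse 1 and -1.64 in mouse 2. Eno1 encodes alpha enolase, which in most tissues is the main isoform, and it was listed at only 12 to 22 reads per library and was below the filter. Of its longest transcript, 81.5% is at least 95% identical to other annotated genes, foremost Eno1b, which was listed at 1 to 4 reads. How reads matching several genes were counted is not given in the sources used here, so the level of Eno1 is uncertain and no share of Eno2 among enolases is given. Pkm, the pyruvate kinase gene, was at 271 and 282 CPM in DPPIV- FAPs and at 238 and 252 CPM in DPPIV+ FAPs, 1.13-fold lower (log2 fold change -0.18 ± 0.07, adjusted p = 0.0302). That was the weakest of the 16 calls, kept in 7 of 17 alternatives. Counts per gene do not separate the M1 and M2 splice forms of Pkm.

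Lactate dehydrogenase is a tetramer of A and B chains; A chains favour the making of lactate and B chains its use. Ldha and Ldhb were both lower in DPPIV+ FAPs, by different amounts. Ldha was at 208 and 221 CPM in DPPIV- FAPs and at 159 and 193 CPM in DPPIV+ FAPs, 1.22-fold lower (log2 fold change -0.29 ± 0.07, adjusted p = 7.59e-05). Ldhb was at 9.70 and 7.36 CPM in DPPIV- FAPs and at 3.72 and 3.07 CPM in DPPIV+ FAPs, 2.50-fold lower (log2 fold change -1.32 ± 0.20, adjusted p = 7.68e-10). Ldhb thus had 1 of the 3 largest differences of the list, similar in mouse 1 (-1.38) and mouse 2 (-1.26). Per kilobase, Ldha was 94.1% and 95.7% of the pair in DPPIV- FAPs and 96.9% and 97.9% in DPPIV+ FAPs. Ldha, Ldhb, Pkm, Pgk1, Pgam1 and Gapdh each share from 38.3% to 76.8% of their longest transcript, at 95% identity or more, with annotated pseudogenes or copies, so their levels carry the same uncertainty as that of Eno1, to an unknown degree. The shared part was 27.3% for Gpi1 and 19.3% for Tpi1. The summed CPM of all 17 enzymes was 1742 and 1805 in DPPIV- FAPs and 1655 and 1729 in DPPIV+ FAPs, so both DPPIV+ libraries lay below both DPPIV- libraries, the nearest values being close.

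The bifunctional enzymes of fructose-2,6-bisphosphate, the main activator of phosphofructokinase, differed from each other. Pfkfb4 was at 7.46 and 9.36 CPM in DPPIV- FAPs and at 14.1 and 16.8 CPM in DPPIV+ FAPs. It had the largest positive difference of the list, 1.84-fold (log2 fold change 0.88 ± 0.14, adjusted p = 6.50e-09), close in mouse 1 (0.92) and mouse 2 (0.84). Pfkfb3, the isoform with the highest kinase activity, was at 17.97 and 21.22 CPM in DPPIV- FAPs and at 18.8 and 16.3 CPM in DPPIV+ FAPs and was not called (log2 fold change -0.16, interval -0.38 to 0.06). The share of Pfkfb4 per kilobase was 35.5% and 36.9% in DPPIV- FAPs and 49.96% and 57.78% in DPPIV+ FAPs. On counts not divided by length, the mean share in DPPIV+ FAPs was 46.8%, so which of the genes was the larger depended on that division.

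**Figure D3:**
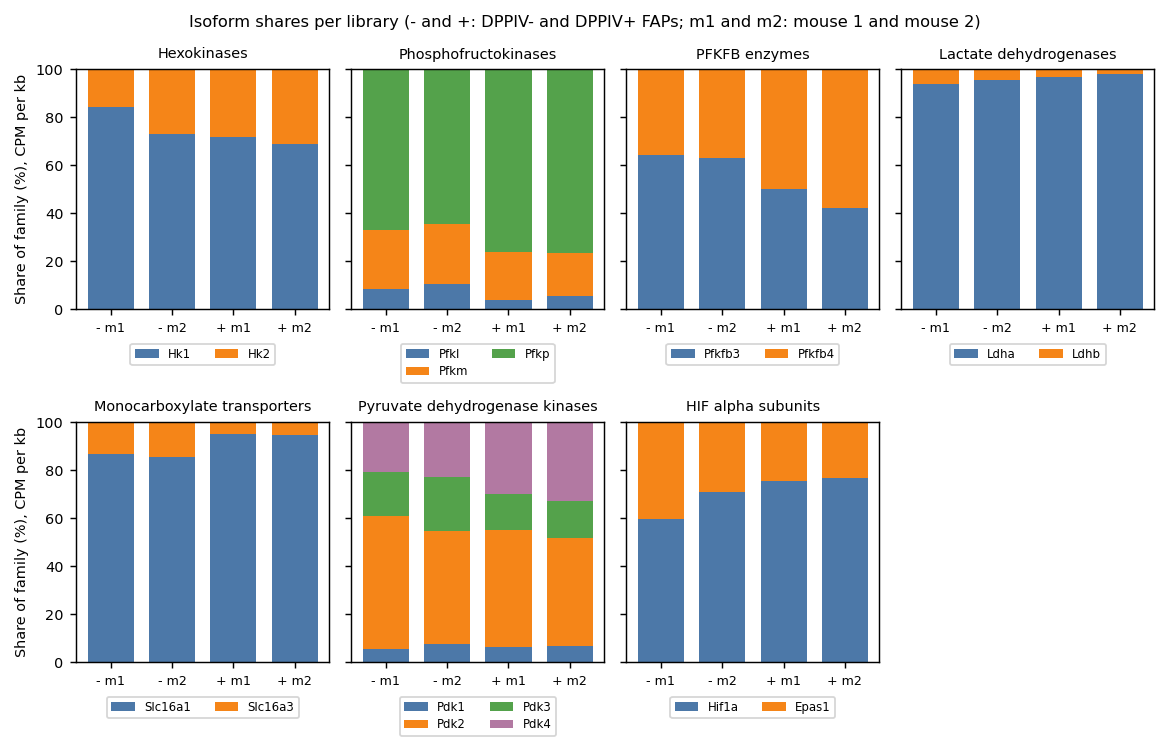
Share of each isoform in its family (percent of the family's summed CPM per kilobase of principal transcript) in the 4 libraries; bars marked - are DPPIV- FAPs, bars marked + DPPIV+ FAPs, m1 and m2 the mice. In both DPPIV+ libraries the segments of Hk2, Pfkp, Pfkfb4, Ldha, Slc16a1, Pdk4 and Hif1a are taller than in both DPPIV- libraries.

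Pyruvate dehydrogenase kinases switch off the entry of pyruvate into mitochondria, and 2 of the 4 genes were called, in opposite directions. Pdk4, the isoform induced by fasting, was at 20.9 and 21.2 CPM in DPPIV- FAPs and at 26.7 and 30.9 CPM in DPPIV+ FAPs. It was 1.37-fold higher (log2 fold change 0.45 ± 0.10, adjusted p = 1.93e-05), but not with DESeq2 (adjusted p = 0.0731; range over the alternatives 1.17e-05 to 1.0). Pdk3 was at 11.2 and 12.8 CPM in DPPIV- FAPs and at 8.28 and 8.67 CPM in DPPIV+ FAPs, 1.42-fold lower (log2 fold change -0.50 ± 0.15, adjusted p = 0.00377), a call kept in 10 of 17 alternatives. Pdk2, the most abundant of the 4 per kilobase, was at 36.0 and 28.0 CPM in DPPIV- FAPs and at 28.2 and 27.2 CPM in DPPIV+ FAPs. The library that stood out was the DPPIV- library of mouse 1, and the gene was not called (log2 fold change -0.20, adjusted p = 0.0651). Pdk1, a classical HIF target, was at 8.22 to 10.7 CPM and overlapped (log2 fold change -0.07, interval -0.38 to 0.24). The summed CPM of the 4 kinases was 74.5 ± 2.59 in DPPIV- FAPs and 74.0 ± 3.65 in DPPIV+ FAPs (n = 2 mice).

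Of the HIF switch, only Epas1 was called among the 3 genes tested. Epas1 encodes HIF-2 alpha, which is also abundant in endothelial cells. It was at 70.5 and 56.3 CPM in DPPIV- FAPs and at 40.5 and 40.0 CPM in DPPIV+ FAPs. The DPPIV+ libraries were level and 1.57-fold below the others (log2 fold change -0.65 ± 0.07, adjusted p = 6.14e-18), with -0.80 in mouse 1 and -0.49 in mouse 2. Both ratios lay just outside its 95% interval of -0.79 to -0.51. Hif1a, which encodes HIF-1 alpha, was at 89.4 and 118.7 CPM in DPPIV- FAPs and at 106 and 114 CPM in DPPIV+ FAPs. The DPPIV- libraries lay on either side of the DPPIV+ libraries, the signs differed between the mice (0.24 and -0.06), and the gene was not called (log2 fold change 0.09, interval -0.04 to 0.22). Per kilobase, Epas1 made up 40.3% and 28.9% of the 2 alpha subunits in DPPIV- FAPs and 24.7% and 23.1% in DPPIV+ FAPs. Egln1, which encodes the main prolyl hydroxylase PHD2, was at 64.5 to 70.9 CPM (log2 fold change 0.01, interval -0.12 to 0.14). Egln3, encoding the inducible PHD3, was at 18 to 34 reads per library and was not tested.

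Among the hypoxia and stress response genes, 1 was higher and 1 lower. Ddit4 encodes REDD1, an inhibitor of mTORC1 that is induced by low oxygen, glucocorticoids and energy stress. It was at 66.9 and 79.9 CPM in DPPIV- FAPs and at 38.8 and 51.6 CPM in DPPIV+ FAPs, 1.63-fold lower (log2 fold change -0.71 ± 0.07, adjusted p = 8.72e-23). Ndrg1, a differentiation and stress gene induced by hypoxia, was at 131.7 and 134 CPM in DPPIV- FAPs and at 173 and 169 CPM in DPPIV+ FAPs, 1.29-fold higher (log2 fold change 0.37 ± 0.07, adjusted p = 2.61e-07). The cell types did not overlap for either gene. Bnip3, a mitophagy receptor and HIF target, was at 13.6 to 16.6 CPM and was not called (log2 fold change -0.01, interval -0.25 to 0.24), and 94.2% of its longest transcript is at least 95% identical to other annotated genes. Ankrd37, a small HIF-1 target, had 14 to 33 reads and was not tested. Aldoc, the brain-type aldolase, had 1 to 6 reads.

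The 2 animals also differed in some of these genes. In the same model, Hk2, Pfkl, Hif1a and Ddit4 were higher in mouse 2 than in mouse 1, 4 of the 30 genes against 4.47% of all genes, by 0.56, 0.55, 0.26 and 0.33 on the log2 scale. None of the 30 was lower in mouse 2 by edgeR, against 4.51% of all genes. For the mouse term, 9 of the 30 genes had an unadjusted p under 0.05 in edgeR, against 20.3% of all genes, and 3 had one in DESeq2, against 5.62%. DESeq2 called 0 of the 30 for mouse, where it called 0.949% of all genes. Xist, expressed from the inactive X chromosome of females, had 153 and 166 reads in the libraries of mouse 1 and 1 and 3 in those of mouse 2; sex and animal cannot be told apart. The X-linked genes of the list, Pgk1 and Pdk3, did not pass the threshold for mouse (adjusted p = 0.822 and 0.694).

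Other genes of the same pathways were counted from lists that did not include the 34. Of 13 other glycolysis genes tested, 2 were higher and 1 was lower in DPPIV+ FAPs. The lower one was Slc2a3, the high-affinity glucose transporter GLUT3, at 11.8 ± 1.43 CPM in DPPIV- and 4.25 ± 0.20 CPM in DPPIV+ FAPs (n = 2 mice; log2 fold change -1.47 ± 0.18, adjusted p = 2.18e-15); Galm, an aldose mutarotase (1.26), and Tigar, a fructose-2,6-bisphosphatase (0.57; not past the threshold with DESeq2), were the higher ones. Of 8 pentose phosphate genes, 4 were higher, among them the oxidative enzymes Pgd (log2 fold change 0.56) and G6pdx (0.42), and H6pd, the enzyme of the endoplasmic reticulum, was lower (-0.47); DESeq2 called 2 higher and 1 lower. Of 11 genes of glycogen metabolism, 3 were higher and 3 lower, and with DESeq2 2 and 2. The liver-type phosphorylase Pygl was higher (means of 42.4 CPM in DPPIV- and 102.6 CPM in DPPIV+ libraries, log2 fold change 1.29 ± 0.07) and the muscle-type phosphorylase Pygm lower (22.1 and 5.24 CPM, -2.09 ± 0.14), with Ppp1r3c, a glycogen-targeting subunit, also lower (-1.38). Of 11 genes for the entry of pyruvate into mitochondria, 2 were higher, Pdha1 (0.22) and Dlat (0.21), both subunits of the pyruvate dehydrogenase complex and neither past the threshold with DESeq2. Of 3 genes of gluconeogenesis tested, edgeR called 0, with 2 at an unadjusted p under 0.05, and DESeq2 called 0.

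For the oxygen response, 28 of 31 other hypoxia-induced genes were tested, of which 4 were higher and 10 lower, with a median log2 fold change of -0.13; DESeq2 called 1 higher and 5 lower. Among the lower ones were Ndufa4l2, a mitochondrial protein induced by HIF (-1.84), and the cytokine Mif (-1.01). Of 11 components of the HIF pathway, 2 were higher, Arnt2, a partner of HIF alpha subunits (0.69 ± 0.04 CPM in DPPIV- and 3.26 ± 0.44 CPM in DPPIV+ libraries, log2 fold change 2.22), and Cited2, a competitor for their coactivator (0.58), both also with DESeq2. Arnt2 reached the filter of 2 CPM only in DPPIV+ FAPs, so it could be tested only because it was high there. Of 13 genes listed around mTORC1 and stress, a list that also held Rheb, Rptor, Txnip and Arrdc4, 6 were lower and 1 was higher. With DESeq2, 2 were lower and 0 higher. The higher one by edgeR was Arrdc4 (0.30), and Txnip (-0.23) was among the lower ones. Ddit4l, the paralogue of Ddit4, had the largest difference of that list but reached the filter only in DPPIV- FAPs (10.4 ± 0.53 CPM in DPPIV- and 1.30 ± 0.26 CPM in DPPIV+ libraries, log2 fold change -3.00 ± 0.24, adjusted p = 4.19e-35), followed by the mTOR inhibitor Deptor (-0.81) and by Sesn2 (-0.61), the latter lost with DESeq2. Of 15 genes that respond to glucocorticoids or FOXO factors, 4 were higher and 6 lower (2 and 3 with DESeq2), with Tsc22d3 (-0.68) and Sgk1 (-0.56) lower and Zbtb16 (0.60) higher. Of 15 PPAR and fatty acid oxidation genes, 1 was higher and 3 were lower (0 and 2 with DESeq2), among them Ucp2, a mitochondrial carrier (-1.31), and the fatty acid transporter Cd36 (-0.49; not past the threshold with DESeq2). Each of these edgeR counts, and those of the other pathway lists above, stands beside the 15.9% and 17.2% of all genes called higher and lower. For DESeq2 these shares were 7.97% and 8.59%.

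**Figure D4:**
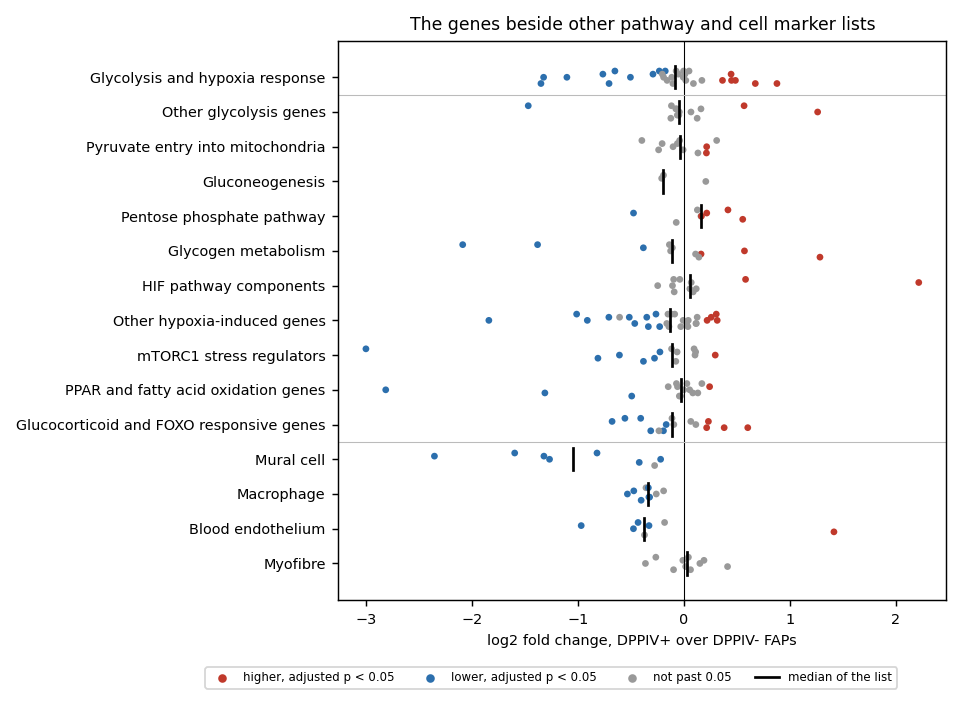
Log2 fold changes of DPPIV+ over DPPIV- FAPs for the tested genes of each list (1 point per gene; red higher, blue lower, grey not past an adjusted p of 0.05; black bar the median), with the 34 genes on top, 10 other pathway lists below and 4 lists of cell type markers at the bottom. The points of the top row lie on both sides of 0 around a median of -0.088, whereas 7 of the 8 mural cell markers are lower.

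Markers of other cells moved with some of these results, although the sort had removed CD31+ and CD45+ cells. Beside the counts below, edgeR called 15.9% of all genes tested higher and 17.2% lower, and DESeq2 7.97% and 8.59%. Of 8 mural cell markers, 7 were lower in DPPIV+ FAPs (4 with DESeq2; 1, Kcnj8, reached the filter only in DPPIV- FAPs), and their summed level was 189 to 191 CPM in DPPIV- FAPs and 88.5 to 103.7 CPM in DPPIV+ FAPs, with all 8 detected in every library and Cspg4 the most abundant. The median difference of that list was -1.14 in mouse 1 and -0.96 in mouse 2. In the same order, Slc16a3 was at -0.87 and -1.32, Eno2 at -1.06 and -1.64 and Ldhb at -1.38 and -1.26. Single markers varied widely, from -2.355 (Abcc9) to -0.22 (Des), with Rgs5 at -0.42 and Myh11, not called, at -0.28. The part of mural RNA in the lower genes was not tested. Of 9 macrophage markers tested, 6 were lower by edgeR and 0 by DESeq2, with summed levels of 238 to 395 CPM in DPPIV- and 222 to 254 CPM in DPPIV+ FAPs, and all 10 of the list had reads. Their median was -0.58 in mouse 1 and -0.05 in mouse 2. Of 7 blood endothelial markers, 4 were lower and 1, Tek, was higher, of which DESeq2 called Tek alone, with medians of -0.78 in mouse 1 and 0.037 in mouse 2 and summed levels, most of them Tek, of 189 to 261 CPM in DPPIV- and 466 to 510 CPM in DPPIV+ FAPs. Epas1 was at -0.80 in mouse 1 and -0.49 in mouse 2; the part of macrophage or endothelial RNA in the lower genes was not tested. Of 6 tenocyte markers, 4 were higher and 2 lower (4 and 0 with DESeq2), with a median of 1.15 in mouse 1 and 1.53 in mouse 2. Fmod (2.26) and Scx (2.14), the latter at 2 CPM only in DPPIV+ FAPs, had the largest differences. Thbs4, the most abundant, was lower by edgeR (-0.20, not with DESeq2), but its sign differed between mouse 1 (-0.47) and mouse 2 (0.08). The summed level of the tenocyte markers was 1975 to 2639 CPM in DPPIV- and 2003 to 3965 CPM in DPPIV+ FAPs. The part of tenocyte RNA in the genes higher in DPPIV+ FAPs was not tested. Of 10 myofibre markers tested, 0 were called by edgeR or DESeq2 and 0 had an unadjusted p under 0.05, with summed levels of 73.4 to 108.9 CPM in DPPIV- and 77.4 to 108.4 CPM in DPPIV+ FAPs. Immediate early genes, which respond to cell isolation, were abundant in all libraries (summed 12600 to 12760 CPM in DPPIV- and 10130 to 11440 CPM in DPPIV+ FAPs), and 7 of 10 were lower and 2 higher; their relation to the stress gene Ddit4 was not tested.

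The calls for Eno2 and Ldhb were kept in all 17 tested alternatives, and those for Pfkp and Epas1 in all but the test against a 1.5-fold change. Without the mouse term, Hk2, Pfkl, Tpi1, Pkm, Ldha and Pdk3 were no longer called. When single libraries were left out of the model without mouse, further calls were lost for Slc16a1 (without either library of mouse 1), Slc16a3 (without either DPPIV+ library or without the DPPIV- library of mouse 2), Ddit4 (without the DPPIV+ library of mouse 1), Ndrg1 (without either DPPIV+ library), and Pdk4 and Pfkfb4 (without the DPPIV+ library of mouse 2).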

How the data were processed

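Bulk RNA was sequenced from DPPIV- and DPPIV+ FAPs of 2 mice. The authors demultiplexed paired-end reads with bcl2fastq 2.20, aligned them to mm10 with STAR, tallied them per gene with RnaReadCounter and deposited the table as raw counts by gene symbol, not normalized. The handling of multiply mapped reads and of strand is not given in the sources used here; the labels and the paper name different library kits.

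From these counts, the 11588 genes that reached 2 CPM in 2 or more libraries were normalized by TMM and tested with edgeR 4.0.16 (R 4.3.3; quasi-likelihood F test, two-sided, mouse and cell type in the model, 1 residual degree of freedom, Benjamini-Hochberg adjustment, threshold 0.05). Prior degrees of freedom came out infinite, and p-values therefore rest on the dispersion trend over all genes. The same holds for SEs and intervals, which do not measure how far the 2 mice differed in a gene. The SE is the log2 fold change over the square root of F, and intervals are 95%. Ratios per mouse used a prior count of 0.125. DESeq2 1.42.0 was an alternative, with other scalings, filters and tests. The script was tested on simulated data. CPM values are on TMM-scaled library sizes; values per kilobase divide them by the principal transcript of GENCODE M21 (GRCm38), in which all 34 symbols were found. Promoter windows are from RefSeq (GRCm38.p6).

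Libraries were paired by the animal named in their titles; deviations of same-animal libraries from their group means correlated at 0.44 across genes. Every gene of the list is named. From other lists, the 3 genes with the largest called difference in 1 direction in both mice are named, and from marker lists the most abundant. Some genes that this rule picks are not reported here. The members and lists were chosen with earlier results of these data known. Separate animals are the replicates, and counts of 3 or fewer reads are at the limit of detection, for counting error only.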

Additional observations from a re-analysis of the deposited data

How the results depend on the processing

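Of 570 values of single genes over the alternatives, 479 were scored as unchanged, 60 lost the threshold, 4 passed it and 27 changed sign. No called gene changed sign. For the 17 alternatives with p-values, unchanged meant the same direction and side of the threshold. Ratios within single mice had no p-value. For them, unchanged meant the same sign and a distance from the fitted value below the SD of the 2 mice. That outcome was close to fixed in advance, because the fitted value lies between the mice. Over all genes (1837 higher, 1989 lower), DESeq2 called 923 and 995, the fit with no replicate block (pairing by mouse) 1001 and 1119, and the test against a 1.5-fold change 436 and 656. Of the list (6 higher, 10 lower), the fit with no replicate block called 5 and 5, and the 1.5-fold test 0 and 3. Leaving out single libraries, without the block and with a lone sample taken to vary like the others, gave 632 to 1049 and 732 to 1121 over all genes and 2 to 6 and 3 to 6 of the list. The median log2 fold change of the list was -0.13 with upper-quartile scaling, -0.12 with total counts, -0.12 with no filter, -0.11 with 10 counts in every library and -0.034 with correction for GC content and length, -0.055 to -0.11 without single libraries and -0.038 to -0.068 within single mice. For the mouse term DESeq2 called 0 of the list and 110 of all genes. Genes near 0 that changed sign were Hk1 and Egln1 with upper-quartile scaling (-0.024 and -0.032) and total counts (-0.018 and -0.026), Gpi1 and Bnip3 with no filter (0.0088 and 0.0057), Gpi1 with 10 counts (0.00037), and Gapdh and Gpi1 with the GC correction (0.021 and 0.064). Without 1 library or 1 mouse, values spanned -0.11 to 0.30 for Hif1a, -0.27 to 0.037 for Pfkm, -0.38 to 0.063 for Pfkfb3, -0.25 to 0.13 for Pdk1, -0.093 to 0.20 for Slc2a1, -0.074 to 0.074 for Gpi1, -0.15 to 0.13 for Bnip3 and -0.056 to 0.079 for Egln1. With 2 mice, 1 residual degree of freedom and few reads for Slc16a3 and Ldhb, precision is limited; the causes of these changes were not tested.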
